A study of Caenorhabditis elegans with 6 samples.

Results

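The C-type lectin family of the nematode Caenorhabditis elegans was examined in RNA from sorted male cells, taking as members every gene whose WormBase symbol is clec followed by a number. The rule gave 240 members among the 46932 genes of the count table, all of them annotated as protein-coding. Membership rested on the symbol and not on protein sequence, which was not used here. The csr-1a mutant group (3 libraries) carried gfp::sl2::2xflag::aid::csr-1a_delta, a tagged csr-1a with a deletion, and the WT group (3 libraries) carried gfp::sl2::2xflag::aid::csr-1a, the tagged form without it. The gene csr-1 encodes an Argonaute, a protein that binds small RNAs. Both groups also carried him-8, which raises the share of males, and the extrachromosomal arrays Ex(pnc-1p::wrmScarlet) and Ex(pcs-1p::wrmScarlet), whose red fluorescence was used for sorting. All animals were young adult males whose parents had been heat-stressed as late L4 larvae, and each library was made from 5000 sorted cells that the labels assign to the rectal valve and rectal gland. The labels call the libraries biological replicates without saying what was separate between them. The p-values set the difference between groups against the spread between these libraries and treat the libraries as independent.

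C-type lectins share a disulfide-stabilised fold, the C-type lectin-like domain, which in some members binds sugars with the help of calcium. In C. elegans the family is greatly expanded and many members are secreted. Several are known from the intestine, where they are induced by bacterial infection, in part downstream of the p38 MAP kinase PMK-1, and others have roles in neurons or in the extracellular matrix.

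The libraries held 22470932 to 47890863 counts in the mutant and 17748698 to 26577422 in WT, of which ribosomal RNA took 74.4% to 78.4%. The counts outside ribosomal RNA numbered 4918549 to 11541671 in the mutant and 4542195 to 6137438 in WT. Mutant replicate 2 and WT replicate 3 had the fewest genes with a count, 12757 and 14012, against at least 18071 in each other library. Over all 11968 tested genes, edgeR called 4.04% higher in the mutant and 1.55% lower at an adjusted p under 0.05. A list of 15 rectal and reporter genes took 0.0578% to 0.0714% of counts outside ribosomal RNA in the mutant and 0.0372% to 0.0430% in WT, with 2 of 10 tested genes higher in the mutant and none of the 15 at 0 counts throughout. Of 30 body wall muscle genes, 29 were tested, 25 of them were higher in the mutant and 0 lower, and the list took 4.57% to 9.71% in the mutant and 0.496% to 0.573% in WT, with unc-60 at 0 counts throughout. Of 9 coelomocyte genes (coelomocytes are scavenger cells of the body cavity), 7 were lower in the mutant and 0 higher, with 0.761% to 1.15% in the mutant and 1.64% to 1.69% in WT, and none of the 9 at 0 counts throughout. Marker lists of 3 other tissues took smaller shares that were also higher in every mutant library than in any WT library. The hypodermis list took 0.0317% to 0.0429% in the mutant and 0.0126% to 0.0168% in WT (1 of 10 tested genes higher, 0 lower, col-10 at 0 counts throughout). The pharynx list took 0.0316% to 0.0769% in the mutant and 0.0182% to 0.0297% in WT (0 of 13 higher, 1 lower). The excretory list took 0.0152% to 0.0177% in the mutant and 0.00996% to 0.0141% in WT (1 of 10 higher, 0 lower). How pure the sorted cells were is not stated.

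Most of the family was sparse or undetected in these cells. Of the 240 members, 49 had no count in any library, 114 had counts but too few to be tested, and 77 were tested. By the simpler rule of 10 counts in at least 3 libraries 79 members passed. The tested share was 32.1% of the family, against 57.2% of the 19980 protein-coding genes, and the share with no count at all was 20.4% of the family against 10.5% of protein-coding genes. At 0 counts were 93, 156 and 99 members in mutant replicates 1, 2 and 3 and 95, 96 and 138 members in WT replicates 1, 2 and 3. Mutant replicate 2 and WT replicate 3, with the fewest genes detected, also held the fewest C-type lectins. Only 36 members reached 10 counts in all 6 libraries, and 32 had counts in a single library. The 3 symbols clec-15, clec-209 and clec-249 each name 2 gene identifiers, and all 6 of these genes had 0 counts. The 2 genes of each symbol have the same exon length, at 1242, 891 and 345 bp in that order. If their sequences are alike, reads that fit both may have been lost in counting, which was not tested. By counting error alone, 0 counts in a library allowed up to 3 counts, equal to 0.0630 to 0.133 CPM (the count in proportion to a library's scaled total) in the mutant and 0.123 to 0.177 CPM in WT. The spread between libraries went beyond this bound. Of 120 members with at least 10 counts in a mutant library, 43 were at 0 in another mutant library, and in WT 22 of 96.

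**Figure D1:**
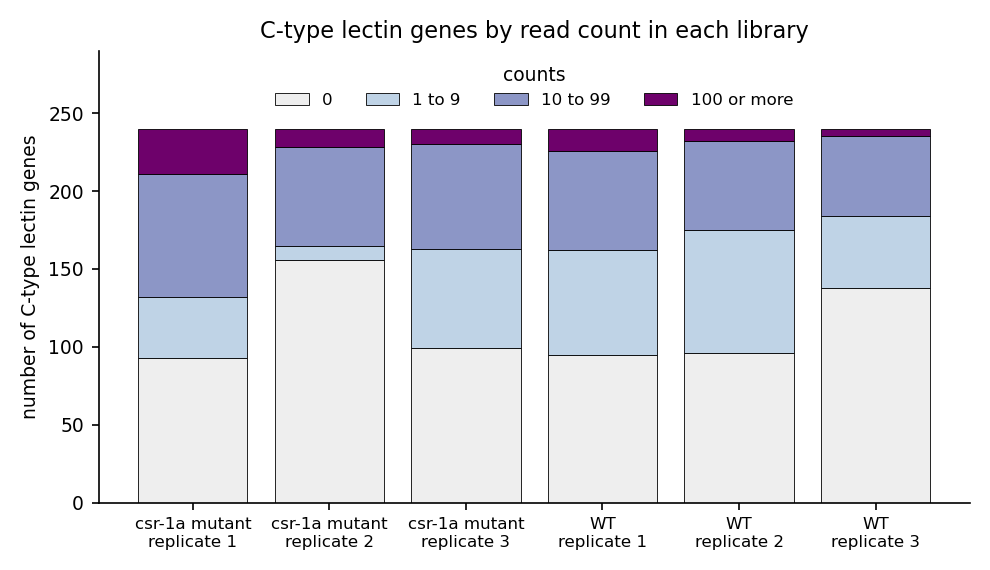
Number of the 240 C-type lectin genes (vertical axis) in each class of read count, as stacked bars for 3 csr-1a mutant and 3 WT libraries. Mutant replicate 2 had 156 members at 0 counts and WT replicate 3 had 138, against 93 to 99 in the other libraries.

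The counts of the family were concentrated in a few members. The gene clec-145 (WBGene00013013) took 37.3% of all family counts, clec-178 (WBGene00020585) 29.02% and clec-63 (WBGene00009394) 6.27%. Together clec-145 and clec-178 made up 53.2%, 68.6% and 63.1% of the family's counts in mutant replicates 1, 2 and 3 and 70.8%, 72.2% and 78.3% in WT replicates 1, 2 and 3. The share of this pair was lower in every mutant library than in any WT library. The whole family took 0.187%, 0.251% and 0.248% of counts outside ribosomal RNA in the mutant (0.229% ± 0.0360, SD, n = 3) and 0.271%, 0.285% and 0.248% in WT (0.268% ± 0.0185, SD, n = 3). For these shares the exact binomial 95% intervals reached at most 0.00490 percentage points to either side, which covers counting error only. The groups overlapped, since the share in WT replicate 3 fell between those in mutant replicates 2 and 3. With the pair left out, the other members took 0.0878%, 0.0789% and 0.0915% in the mutant and 0.0793%, 0.0791% and 0.0538% in WT, and the groups overlapped.

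**Figure D2:**
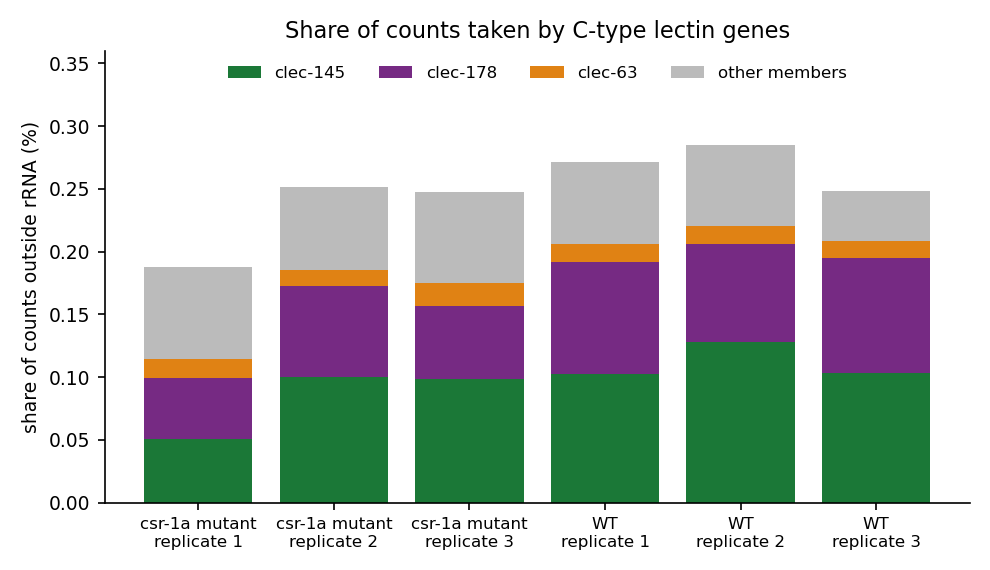
Share of counts outside ribosomal RNA (vertical axis, percent) taken by clec-145, clec-178, clec-63 and all other C-type lectin genes, stacked for each csr-1a mutant and WT library. The total lies between 0.187% and 0.251% in the mutant and between 0.248% and 0.285% in WT.

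Levels can be compared between genes only per length of exon, and on that scale clec-178 came first. It stood at 217 ± 37.1 CPM per kilobase in the mutant and 349 ± 49.8 in WT (SD, n = 3 each), which placed it 39th of the 19980 protein-coding genes. The gene clec-145 followed with 138 ± 41.0 CPM per kilobase in the mutant and 205 ± 15.9 in WT, and ranked 101 among protein-coding genes. The ranges of clec-178 and clec-145 did not overlap within either group, since clec-178 covered 189 to 259 CPM per kilobase in the mutant and 295 to 392.1 in WT, and clec-145 covered 90.5 to 165 and 191 to 222 in the same groups. The next gene, clec-63, had 27.5 ± 4.53 CPM per kilobase in the mutant and 27.7 ± 0.913 in WT. It was followed by clec-50 with 7.59 ± 1.22 in the mutant and 7.28 ± 1.15 in WT. The remaining 6 of the 10 highest members, clec-197, clec-158, clec-137, clec-126, clec-1 and clec-87, lay between 3.97 and 5.34 CPM per kilobase over all 6 libraries, with ranges that overlapped from each to the next in both groups.

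The series compares csr-1a mutant with WT cells to study changes in tail shape in csr-1a mutants, and here it was asked which members differed beyond the spread between libraries. Of the 77 tested members, 1 was higher in the mutant (clec-149) and 1 was lower (clec-178) by edgeR's quasi-likelihood test at a Benjamini-Hochberg adjusted p under 0.05. These are 2.60% of the tested members, against 5.59% of all 11968 genes tested. In each direction the family stood at 1.30%, where the background was 4.04% for higher and 1.55% for lower genes. At an unadjusted p under 0.05 were 5 members, 6.49%, against a background of 16.9%. The mutant and WT ranges were apart in 14 members, 6 higher and 8 lower in the mutant, or 18.2% against 24.8% of all tested genes. The median log2 fold change (mutant over WT) was 0.11 over the tested members and 0.01 over all tested genes, and 41 members were positive and 36 negative. Members that passed the filter only through the group where they were higher are part of these counts, so the counts describe the 77 genes and not the family.

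Wide standard errors bounded what the test could find in this family, where levels were low. The median standard error of the log2 fold change was 0.77 over the tested members and 0.46 over all tested genes, and the median level was 1.32 CPM against 3.47 CPM. Of the tested members 32 averaged under 1 CPM, where 0.334% of all tested genes were called, and 0 of these 32 members were called by edgeR, DESeq2 or limma-voom, with 1 at an unadjusted p under 0.05 in edgeR. At 1 to 5 CPM stood 39 members, of which 1 was called, against 2.94% of all genes at that level. Above 5 CPM stood 6 members (clec-145, clec-178, clec-63, clec-41, clec-50 and clec-78, clec-41 being named after its value was seen), of which 1 was called, against 10.6% of all genes at that level.

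**Figure D3:**
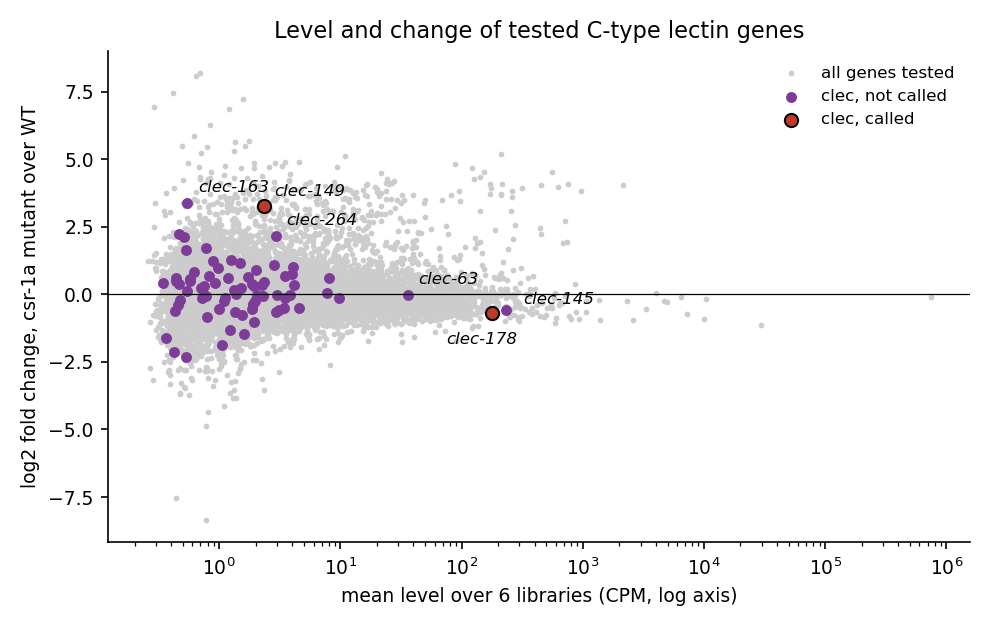
Log2 fold change of csr-1a mutant over WT (vertical axis) against mean level over 6 libraries (CPM, log axis) for the 77 tested C-type lectin genes and all 11968 tested genes (grey). The called members clec-149 (3.27) and clec-178 (-0.69) are outlined, and most other members lie at low levels on both sides of 0.

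The member called higher was clec-149 (WBGene00019328, WBcel235 chromosome III, 823222 to 826408, plus strand). It was at 8.58, 1.74 and 2.35 CPM in mutant replicates 1, 2 and 3 and at 0.329, 0.408 and 0.590 CPM in WT replicates 1, 2 and 3, from 409, 44 and 53 counts in the mutant and 8, 8 and 10 counts in WT. Every mutant library was above every WT library, and mutant replicate 1 was far above the other two. The gene passed the low-count filter only through the mutant libraries, the group where it is high. The log2 fold change was 3.27 ± 0.71 (SE), a 9.62-fold difference (edgeR adjusted p = 0.0208). Without mutant replicate 1 the log2 fold change was 2.22 (edgeR adjusted p = 0.261), and among the other alternatives that ended the call were those without WT replicate 1, 2 or 3 (edgeR adjusted p = 0.0717, 0.0629 and 0.0601) and limma-voom (adjusted p = 0.309). The muscle list was also highest in mutant replicate 1, with 9.71% of counts outside ribosomal RNA against 4.57% and 4.95% in the other mutant libraries. Per 1000 counts of the muscle list, a ratio computed after the values were seen, clec-149 had 0.365, 0.170 and 0.218 counts in the mutant and 0.227, 0.349 and 0.415 in WT, and the groups overlapped. Dividing by a list that is itself higher in the mutant lowers the mutant ratio of any gene relative to WT. The overlap therefore decides nothing about the source of the difference. The hypodermis, pharynx, excretory and rectal lists were higher in the mutant too, and their part in the values of clec-149 was not tested. In RNA from bulk cells, a change in the number of cells of a type and a change in RNA per cell cannot be told apart.

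The member called lower was clec-178 (chromosome IV, 5653949 to 5655003, plus strand), the member with the highest level per length. It was at 118.5, 162 and 127 CPM in mutant replicates 1, 2 and 3 and at 226, 184 and 245 CPM in WT replicates 1, 2 and 3. The groups did not overlap, and the gap between the highest mutant and the lowest WT library was smaller than the range within either group. The log2 fold change was -0.69 ± 0.17 (SE), a 1.61-fold difference (edgeR adjusted p = 0.0392). Among the alternatives that ended the call were those without mutant replicate 1 or 3 (edgeR adjusted p = 0.0542 and 0.134), without WT replicate 1 or 3 (0.201 and 0.146), without mutant replicate 2 and WT replicate 3 together (0.0829) and with scaling by library totals alone (0.131). The log2 fold change stayed between -0.80 and -0.57 in all 16 alternatives run.

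The coelomocyte list moved in the same direction as clec-178, with 0.761%, 1.15% and 1.14% of counts outside ribosomal RNA in mutant replicates 1, 2 and 3 and 1.64%, 1.66% and 1.69% in WT replicates 1, 2 and 3. Per 1000 counts of that list, a ratio computed after the values were seen, clec-178 had 64.3, 63.1 and 50.7 counts in the mutant and 54.5, 46.9 and 54.3 in WT. Measured this way the groups overlapped, and the mutant mean of 59.4 ± 7.52 was not below the WT mean of 51.9 ± 4.31 (SD, n = 3 each). Dividing by a list that is itself lower in the mutant raises the mutant ratio of any gene relative to WT. The overlap therefore decides nothing about the source of the difference, which was not tested.

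The most counted member, clec-145 (chromosome II, 13588776 to 13590561, minus strand), was not called. It was at 123, 223 and 214 CPM in mutant replicates 1, 2 and 3 and at 259, 302 and 276 CPM in WT replicates 1, 2 and 3. All mutant libraries were lower than all WT libraries, and mutant replicate 1 was the lowest by a wide margin. The difference, -0.58 ± 0.21 on the log2 scale, missed the threshold (edgeR adjusted p = 0.165), and without mutant replicate 1 it was -0.34 (edgeR adjusted p = 0.165). The 3′ end of clec-145 shares 226 bp of exon with Y48E1B.8 on the opposite strand, which averaged 4.62 ± 1.13 CPM in the mutant and 9.49 ± 0.802 CPM in WT (SD, n = 3 each). Whether counting used strand is not stated, so reads of this overlap cannot be assigned to either gene. Per 1000 counts of the coelomocyte list, also computed after the values were seen, clec-145 had 79.9 ± 11.4 counts in the mutant and 66.8 ± 8.68 in WT (SD, n = 3 each). The groups overlapped, with the same limit as for clec-178. Its neighbour clec-146, which the naming rule did not pick, had 0.609, 0.395 and 1.11 CPM in the mutant and 1.85, 2.14 and 1.24 CPM in WT, and was not called (log2 fold change -1.31 ± 0.72, edgeR adjusted p = 0.423).

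The member closest to the threshold was clec-264 (WBGene00009291, chromosome V, 20847702 to 20850701, minus strand). It was at 7.24, 2.93 and 4.21 CPM in mutant replicates 1, 2 and 3 and at 1.44, 1.38 and 0.354 CPM in WT replicates 1, 2 and 3. The groups did not overlap. As with clec-149, the gene passed the low-count filter only through the mutant libraries, the group where it is high. Its log2 fold change of 2.16 ± 0.58 just missed the threshold (edgeR adjusted p = 0.0550), and 5 of 16 alternatives called it, among them DESeq2 (adjusted p = 0.00632) and the fit without mutant replicate 2 (edgeR adjusted p = 0.0412). Per 1000 counts of the muscle list, also computed after the values were seen, clec-264 had 0.308, 0.286 and 0.390 counts in the mutant and 0.995, 1.18 and 0.249 in WT. The groups overlapped, with the same limit as for clec-149. Other marker lists were higher in the mutant too, and the part of any list in these values was not tested.

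**Figure D4:**
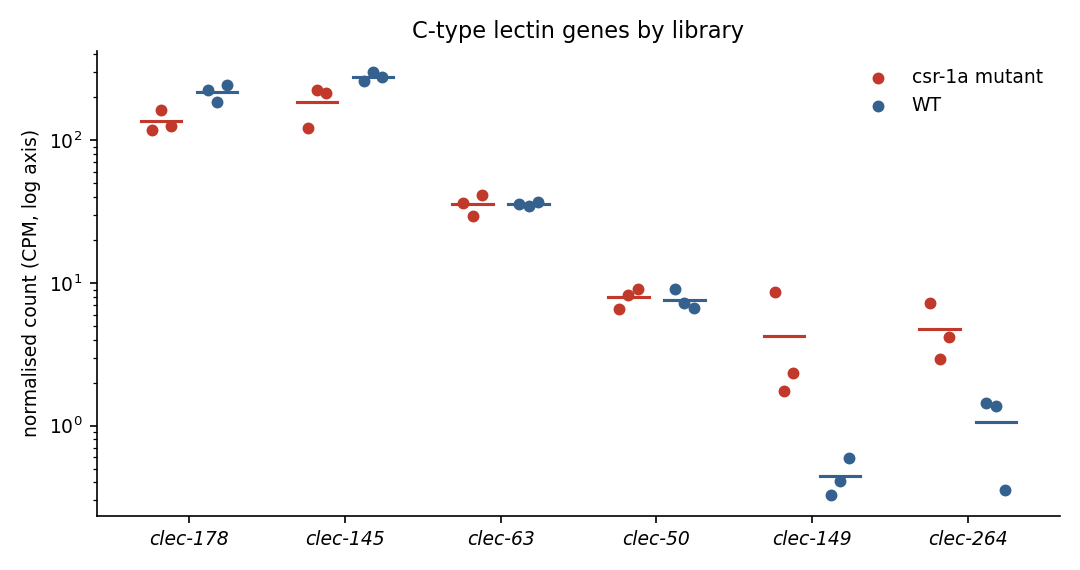
Normalised counts (CPM, log axis) of 6 C-type lectin genes, with a point for each library and a line at the mean of 3 libraries, csr-1a mutant in red and WT in blue. The groups are apart for clec-178, clec-145, clec-149 and clec-264 and overlap for clec-63 and clec-50.

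**Figure D5:**
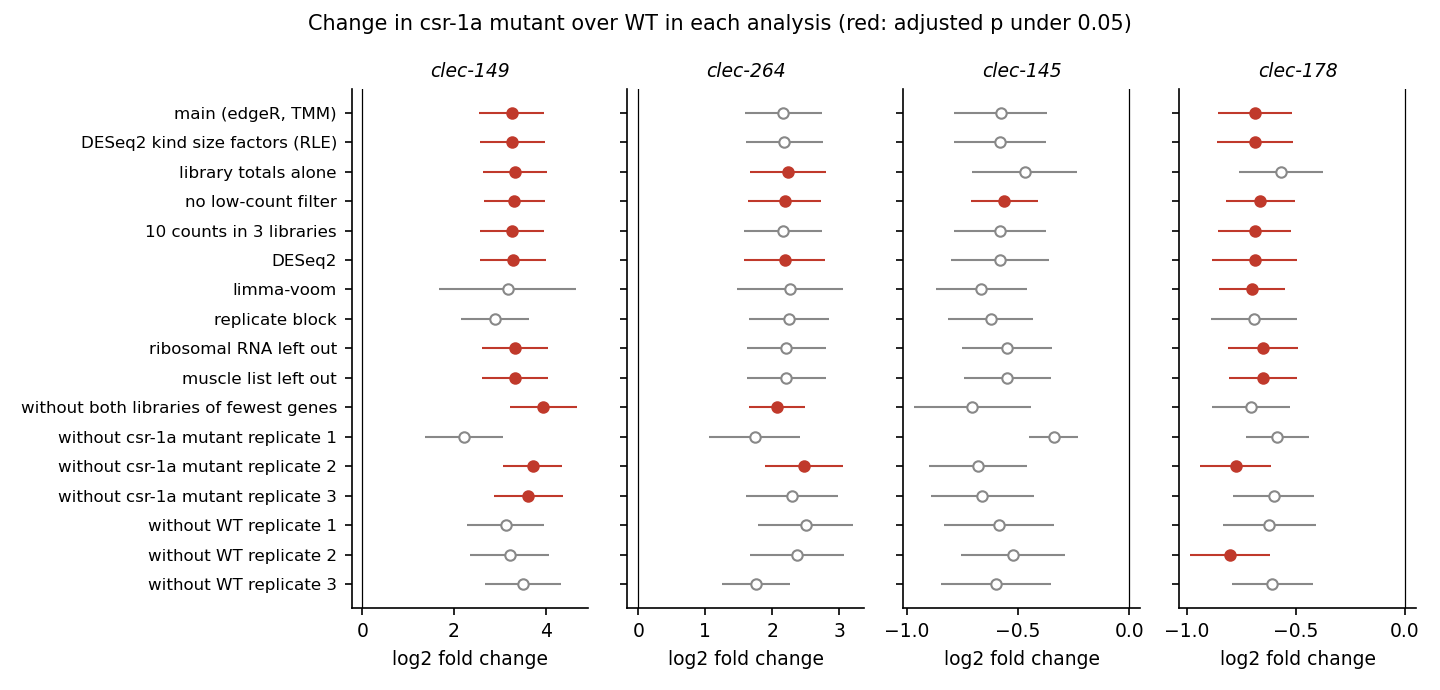
Log2 fold change of csr-1a mutant over WT with its standard error (horizontal axis) for clec-149, clec-264, clec-145 and clec-178 in the main analysis and 16 alternatives (vertical axis), in red where the adjusted p was under 0.05. The direction held for all 4 genes throughout, while clec-149 was called in 10 and clec-178 in 9 of the alternatives.

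The next most abundant members did not pass the test. The gene clec-63 (chromosome II, 12895638 to 12897446) was at 36.2, 29.6 and 41.3 CPM in the mutant and 35.9, 34.8 and 37.1 CPM in WT, so that the WT values fell inside the mutant range. Its log2 fold change was -0.01 ± 0.17, the smallest standard error of any tested member except clec-178. The gene clec-50 (chromosome V, 19752399 to 19755368) was at 6.59, 8.19 and 9.13 CPM in the mutant and 9.01, 7.19 and 6.73 CPM in WT, with a log2 fold change of 0.06 ± 0.27. Both signs changed between alternatives, so neither has a direction.

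Of the other members with the highest levels, clec-197 was at 6.25, 3.28 and 6.78 CPM in the mutant and 4.32, 3.01 and 0.708 CPM in WT, and was not called (log2 fold change 1.01 ± 0.56, edgeR adjusted p = 0.434). The groups of clec-126 and clec-137 also overlapped, with log2 fold changes of 0.76 ± 0.45 and 0.68 ± 0.50. The values of clec-1 were 2.60, 3.64 and 1.33 CPM in the mutant and 4.40, 3.73 and 3.07 CPM in WT (log2 fold change -0.56 ± 0.45). In clec-158 the WT libraries alone spread over 6.05, 3.93 and 0.885 CPM, wider than the mutant values of 2.64, 4.39 and 2.92 CPM, and its log2 fold change was -0.14 ± 0.58. None of these 5 was called.

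Among members that did not pass, clec-163 (chromosome III, 10794349 to 10796369) had the next smallest p of those higher in the mutant, with 75, 15 and 19 counts in the mutant and 5, 0 and 1 counts in WT (log2 fold change 3.39 ± 1.34, edgeR adjusted p = 0.211). It passed the low-count filter only through the mutant libraries. Leaving out WT replicate 1 put it at 4.98 and leaving out WT replicate 2 at 2.84, both still not called. The gene clec-78 (chromosome IV, 3989102 to 4014235), with the longest exon sequence of the family at 10850 bp, was at 12.3, 8.70 and 7.84 CPM in the mutant and 5.80, 7.96 and 5.37 CPM in WT. Its lowest mutant library lay just under its highest WT library, and the log2 fold change was 0.59 ± 0.29 (edgeR adjusted p = 0.350). On the lower side, clec-17 was at 1.20, 0.395 and 0.975 CPM in the mutant and 3.99, 1.28 and 1.83 CPM in WT (log2 fold change -1.46 ± 0.68, edgeR adjusted p = 0.316). The groups were apart, and without WT replicate 1 the log2 fold change was -0.81. For clec-5 the values were 0.462, 0.0791 and 0.797 CPM in the mutant and 1.77, 1.68 and 1.48 CPM in WT, also without overlap (log2 fold change -1.88 ± 0.90, edgeR adjusted p = 0.328), and without mutant replicate 3 the log2 fold change was -2.47. This gene passed the low-count filter only through the WT libraries. Of members too low to test, clec-157 had the most counts, with 64, 32 and 9 in the mutant and 5, 1 and 2 in WT.

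The 8 members named for a known role, most of them from work on infection, ranged from 0 counts to 3.81 CPM over all 6 libraries, the last being clec-87. The PMK-1 target clec-85, the infection-induced clec-70 and clec-38, which acts in axon guidance, had 0 counts in all 6 libraries. The gene clec-39, known for binding the bacterium Serratia marcescens, had 8 counts in mutant replicate 1 and 0 in the other 5 libraries. The gene clec-49, known for the same, had 8, 0 and 15 counts in the mutant and 5, 2 and 0 in WT. The gene clec-60, induced in the intestine by Staphylococcus aureus, had 3, 40 and 13 counts in the mutant and 5, 32 and 8 in WT, so that replicate 2 was the highest in each group. Its log2 fold change was -0.07 ± 1.24, a standard error too wide to bound a difference. The PMK-1 target clec-67 had 27, 60 and 44 counts in the mutant and 34, 29 and 22 in WT (log2 fold change 0.22 ± 0.67). The chondroitin proteoglycan gene clec-87 was at 3.92, 4.51 and 2.92 CPM in the mutant and 5.31, 3.42 and 2.77 CPM in WT, with a log2 fold change of -0.02 ± 0.39. Of its 960 bp of exon 138 bp are shared with iars-2, and how reads of this overlap were assigned is not stated. The tested genes clec-60, clec-67 and clec-87 were not called, and each changed sign between alternatives. A list of 28 intestinal genes, of which 27 were matched, took 0.122% to 0.207% of counts outside ribosomal RNA in the mutant and 0.135% to 0.150% in WT, with acdh-1 and vit-4 at 0 counts and 0 of 21 tested genes called by edgeR (3 at an unadjusted p under 0.05, 1 called by DESeq2 and 0 by limma-voom). Over all tested genes edgeR called 5.59%, and 16.9% had an unadjusted p under 0.05.

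Position was a feature the naming rule did not use. Chromosome V held 86 members, 35.8% of the family against 25.0% of protein-coding genes, and chromosome X held 3, 1.25% against 13.7%. Of the members on chromosome V 18.6% were tested and 25 had no count, while 43.8% of the 48 members on chromosome II and 57.1% of the 14 on chromosome III were tested. Members within 20 kb of each other were joined into groups, which gave 49 groups with 164 members and left 76 members alone. Of the members in groups 28.7% were tested, and of those alone 39.5%, among them clec-178, clec-149 and clec-264.

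Neighbouring members had very unequal counts. In the group of clec-62, clec-63, clec-64, clec-65 and clec-66 (chromosome II, 12893062 to 12906644), clec-63 held 86.2% of 6478 counts. In the pair of clec-145 and clec-146, clec-145 held 99.5%. The longest run, 13 members from clec-40 to clec-33 on chromosome V (16839121 to 16869840), had 86 counts in all 6 libraries together and no tested member. A run of 12 members from clec-67 to clec-78 on chromosome IV (3922165 to 4014235) had 2246 counts, of which clec-78 held 61.0%, with 6 members tested. The most even of the larger runs was that of 7 members from clec-93 to clec-99 on chromosome I (11142110 to 11158833), with 5 tested and 28.9% of 1133 counts on its highest member. Reads of near-identical neighbours may have been shared or lost in counting, which was not tested.

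Other sugar-binding and immune genes give a setting for these counts. Over all tested genes edgeR called 4.04% higher in the mutant and 1.55% lower, and 16.9% had an unadjusted p under 0.05. The lists are short, so a single call moves the share of a list widely. All 12 galectins, lectins of a different fold that bind galactosides, were tested, and 3 were higher and 0 lower in the mutant. The galectin gene lec-2 was at 175, 111 and 103 CPM in the mutant and 47.9, 54.04 and 58.6 CPM in WT (log2 fold change 1.28 ± 0.21, edgeR adjusted p = 0.00369). The genes lec-3 and lec-5 had log2 fold changes of 1.66 ± 0.28 and 1.99 ± 0.35, and no single library ended these 3 calls. In order, lec-2, lec-3 and lec-5 averaged 91.6, 27.7 and 15.4 CPM over all libraries. Above 5 CPM, 10.6% of all tested genes were called in either direction. Of 16 lysozymes 8 were tested and 1 was lower, lys-8 (-1.15 ± 0.27), a call that ended when any of 5 libraries was left out alone (edgeR adjusted p up to 0.169, without WT replicate 1). Another 3 alternatives also ended the lys-8 call. Of 31 saposin-like genes 11 were tested and 0 called by edgeR, with 1 at an unadjusted p under 0.05 and 0 called by DESeq2 or limma-voom. Of 28 antimicrobial peptide genes 6 were tested and 0 called by edgeR, with 2 at an unadjusted p under 0.05, 1 called by DESeq2 and 0 by limma-voom. Of 16 genes of the p38 cascade and its regulators 15 were tested and 0 called by edgeR, with 3 at an unadjusted p under 0.05 and 0 called by DESeq2 or limma-voom. Among 18 irg and dod genes 15 were tested, with 6 at an unadjusted p under 0.05 in edgeR, 4 called by DESeq2 and 2 by limma-voom. The edgeR test called irg-5 lower (-1.22 ± 0.27), which 4 single libraries ended when left out (edgeR adjusted p up to 0.0897, without mutant replicate 2). Of the other alternatives, 1 also ended the irg-5 call. Of 13 chondroitin proteoglycan cores, 8 were tested and cpg-8 was higher (2.27 ± 0.48), which 3 single libraries ended when left out (edgeR adjusted p up to 0.0789, without mutant replicate 1). The part of muscle or coelomocyte RNA in these values was not tested.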

How the data were processed

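RNA was measured in 6 libraries, 3 csr-1a mutant and 3 WT. The values the authors deposited are raw counts for each gene, in whole numbers. Tools listed in the submitters' processing notes are DESeq2, featureCounts, STAR, Subread 2.0.0 and fastp 0.20.1, with no roles. Genome build, annotation and strand setting are not stated. Symbols, exon lengths and coordinates (1-based) came from the WBcel235 annotation (Ensembl release 115) by gene identifier, which matched 46919 of 46932 genes. No protein or promoter sequences were used.

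Counts were filtered with edgeR's filterByExpr (minimum count 10, total 15), scaled with edgeR's TMM factors, and tested over all 11968 genes that passed with the quasi-likelihood test (edgeR 4.0.16, limma 3.58.1 and DESeq2 1.42.0 in R 4.3.3) and Benjamini-Hochberg adjustment. Fold changes are mutant over WT with standard errors. The procedure was tested on simulated counts. CPM values are relative to totals that include ribosomal RNA. No pair of libraries in a group agreed within sampling noise (chi-square per degree of freedom at least 6.14).

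The members and lists were chosen with earlier results of these data known. Named were the called members, the 10 with the highest level per kilobase, the 3 with the smallest p in each direction among those not called, 8 with known roles, the untested member with the most counts and the ends of ranges.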

Additional observations from a re-analysis of the deposited data

How the results depend on the processing

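Of 16 alternatives, size factors of the DESeq2 kind, a filter of 10 counts in 3 libraries, leaving out ribosomal RNA and leaving out the muscle list each called the same 2 members, clec-149 higher and clec-178 lower. Scaling by library totals alone, which put the median log2 fold change of all genes at 0.11 against 0.01, called 2 higher and 0 lower of 77 tested members, where 5.53% of all tested genes were called. No low-count filter gave 2 higher and 2 lower of 191 members (4.46% of all genes), and DESeq2 2 and 2 of 191 (4.42%). The DESeq2 numbers are over every gene with a count, including any that it left without an adjusted p. With limma-voom there were 0 and 1 of 77 (4.93%). Omitting mutant replicate 2 and WT replicate 3 together gave 2 and 0 of 83 (4.18%). The added members were clec-264, clec-145 (no filter) and, in DESeq2, clec-93 (adjusted p = 0.0340), named after its value was seen, with 0 counts in each mutant library and 3, 0 and 31 in WT. Leaving out single libraries gave 0 to 2 higher and 0 to 1 lower of 84 to 88 members (3.22% to 5.44% of all genes). A replicate block called 0 higher and 0 lower of 77 by edgeR (4.65% of all genes), with 5 members at an unadjusted p under 0.05 and adjusted p = 0.0504 for clec-149 and 0.0863 for clec-178. The labels do not say that a number marks a shared culture or day, so the numbers were not taken as pairs. Same-numbered libraries did not deviate together over all tested genes (r = 0.04, -0.02 and -0.07). These correlations include many genes with low counts and cannot decide whether a culture or day was shared. The cause of these changes was not tested.

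The family's share was 0.0540% in the mutant and 0.0652% in WT with ribosomal RNA included, and 0.146% and 0.157% in the same groups without clec-145. Of 288 log2 fold changes of named members under alternatives, 29 reversed, all in 6 members that were never called. With library totals alone clec-63 was at 0.0821, clec-87 at 0.101 and clec-60 at 0.0444. With no filter clec-63 was at 0.0200. With ribosomal RNA left out clec-63 was at 0.0295 and clec-87 at 0.0145, and with the muscle list left out at 0.0315 and 0.0163. In limma-voom clec-50 was at -0.0118, clec-158 at 0.0263 and clec-67 at -0.332. With the replicate block clec-158 was at 0.160 and clec-87 at 0.00854. Without mutant replicate 2 and WT replicate 3 together clec-63 was at 0.169, clec-50 at -0.0169 and clec-67 at -0.205. Leaving out single libraries moved clec-63 over -0.0799 to 0.163, clec-50 over -0.0408 to 0.24, clec-158 over -0.61 to 0.503, clec-87 over -0.22 to 0.333, clec-60 over -1.29 to 1.11 and clec-67 over -0.13 to 0.64.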

Other observations

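Some members with clear counts in a library were at 0 in another of the same group. Of 120 members with at least 10 counts in a mutant library, 43 were at 0 in another mutant library, which was replicate 2 for 38 of them, replicate 3 for 12 and replicate 1 for 4. Of 96 such members in WT, 22 were at 0 in another WT library, which was replicate 3 for 18, replicate 2 for 4 and replicate 1 for 3. Mutant replicate 2 and WT replicate 3 were also the libraries with the fewest genes detected.

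Of the 240 members 40 share exon sequence with another annotated gene, among them 17 of the 77 tested. How such reads were assigned is not stated.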
